A study of Mus musculus with 18 samples.

Results

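The ephrins and Eph receptors, the netrins and their receptors, the Slits and Robos, the Srgap proteins and reelin were followed as a set of guidance genes in cultured mouse mammary fibroblasts. Members were the genes whose symbol belongs to these families, and 45 of the 55486 genes in the table matched. The set was drawn up with results of these libraries known, and 2 members, Srgap3 and Reln, had been selected on their small p-values in the comparisons of tumour medium with control medium. Values of these 2 genes are therefore given as a description, without a test, and counts of tested genes are given over the other members. Counts were scaled to CPM, a gene's share of the TMM-scaled library size written on the usual CPM scale. A gene was said to rise, fall or differ at an FDR under 0.05, the Benjamini-Hochberg adjusted p of edgeR's quasi-likelihood F test over all 14273 genes tested.

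The cells were normal fibroblasts (NFs) from the mammary glands of female FVB/n mice, sorted from pools of several animals as cells without EpCAM, CD49f, CD45 and CD31. They were divided by CD26, a cell surface peptidase encoded by Dpp4, and grown at low passage in serum-rich medium on collagen I. CD26- NFs in control conditioned medium were replicates 1 to 3 and CD26- NFs in tumour conditioned medium (CM) were replicates 4 to 9. CD26+ NFs in control medium were replicates 10 to 12 and CD26+ NFs in CM were replicates 13 to 18. Culture in either medium lasted 7 days. The CM came from 6 lines (13-MCB-17, 10-SJK-221, 18-MCB-12, 13-MCB-44, 13-MCB-90 and 13-MCB-138) of mouse mammary tumours, a model of invasive lobular carcinoma (ILC) in which the Wap promoter drives Cre in mammary epithelium and the floxed alleles include Cdh1F/F, the gene for E-cadherin. Each line supplied 1 library of each NF type. The labels do not say whether replicates came from separate sorts, so the p-values measure the spread between these cultures. Among controls that spread may be technical. In the CM groups it also holds differences among the 6 lines, and all 4 groups share 1 estimate of it.

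These families were named for steering growing axons and also act in many other tissues. Ephrins are ligands held on the cell surface, the A-type by a lipid anchor and the B-type by a membrane-spanning segment, and their Eph receptors are tyrosine kinases, so signalling needs contact between cells. Netrins and Slits are secreted, and are read by Unc5, Dcc and neogenin (Neo1) receptors and by Robo receptors, respectively. Srgap proteins bind the inner tail of Robo, bend membranes, and switch off the small GTPases Rac1 and Cdc42, while reelin is a secreted glycoprotein read by the lipoprotein receptors Vldlr and Lrp8.

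Libraries held between 9725723 and 14585349 counts. Fibroblast genes were high in all groups, with a summed level of the 9 marker genes between 8059 and 77015 CPM. Of these 9, 8 were higher in CD26+ NFs in each medium; in CM 4 were higher and 2 lower in CD26- NFs, and 3 higher and 4 lower in CD26+ NFs. Endothelial markers summed to at most 9.54 CPM and immune markers to at most 29.7 CPM in any library, lymphatic markers to at most 27.6, glial markers to at most 5.04 and pericyte markers to between 34.2 and 78.2 CPM. Of the 4 pericyte markers tested, Rgs5 was lower in CM in CD26- NFs (-2.19 ± 0.29, edgeR FDR = 0.000273), and in CD26+ NFs Abcc9 was lower and Notch3 higher. The CM effect differed between NF types for Rgs5 and Cspg4. Of the endothelial, lymphatic and glial markers, Cdh5 and S100b were higher and Prox1 lower in CM in CD26- NFs, and Vwf was higher in CD26+ NFs. In both media Cdh5, Flt4, Prox1, Cd68 and Sox10 were lower in CD26+ than in CD26- NFs. In control medium Rgs5, Cspg4 and Vwf were also lower there and Abcc9 higher, and in CM Notch3 was higher. The part of these marker differences in the results was not tested. Epithelial markers were not near 0: the 14 genes summed to 4976 to 5589 CPM in CD26- controls, 3367 to 5431 CPM in CD26- CM, 783 to 1461 CPM in CD26+ controls and 748 to 1809 CPM in CD26+ CM. Of these 14 genes, 12 were lower in CD26+ NFs in each medium, none passed between media in CD26- NFs, and Trp63 passed in CD26+ NFs. Dpp4 had at most 2 counts in any control library, so the sort could not be checked there. In CM it lay between 0.715 and 7.80 CPM in CD26+ NFs and between 0.0776 and 0.881 CPM in CD26- NFs. In bulk RNA, fewer cells of a type and less RNA per cell cannot be told apart.

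Of the 45 members, 35 had enough counts to be tested. The 10 others were Efnb3, with a highest count of 10 in any library, Epha5 with 5, Epha8, Ephb1, Ntn5 and Ntng1 with 4 each, Dcc and Robo4 with 3 each, Epha10 with 1 and Epha6 with 0, where 0 counts allow up to 3. The netrin receptor Dcc, for which the pathway is best known in neurons, was thus at the detection floor, and Unc5 and Neo1 carried the netrin receptor signal. Levels of different genes were compared per length, as RPKM, CPM per kilobase of the union of a gene's exons. On that scale the highest members in CD26- controls were Unc5b at 100.1 ± 6.37 (SD, n = 3), Slit3 at 60.6 ± 7.26, Epha2 at 37.3 ± 3.48 and Efnb1 at 35.8 ± 2.63 RPKM. The last 2 differed by less than their spread. In CD26+ controls Unc5b at 145.1 ± 7.53 RPKM and Slit3 at 133.4 ± 6.95 RPKM led, their ranges overlapping, followed by Efnb1 at 51.5 ± 1.02 and Ephb4 at 23.4 ± 0.981 RPKM. Among the Srgap genes in CD26- controls, Srgap2 was at 5.61, Srgap1 at 4.88 and Srgap3 at 2.97 RPKM, and in CD26+ CM Srgap3, at 14.4 ± 2.70 RPKM (n = 6), stood above Srgap2 at 6.74 ± 0.291 and Srgap1 at 4.36 ± 0.973 RPKM.

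The first question was which guidance genes moved when NFs were kept in tumour CM. Most movement was downward and was spread over ligands and receptors. In CD26- NFs, 10 of 33 genes fell (30.3%), against 7.28% of all genes tested: the ephrins Efna1, Efna3, Efna4 and Efna5, the receptors Epha3, Ephb6, Unc5b, Unc5c and Robo1, and the netrin Ntn4. None of the 33 rose by the edgeR test, against 7.88% of all genes, and none did at an unadjusted p under 0.05 or with DESeq2. In CD26+ NFs, 11 of 33 fell (33.3%), against 13.4% of all genes: Efna3, Efna5, Efnb1, Epha3, Ephb6, Ntn4, Neo1, Robo1, Unc5a, Unc5b and Unc5c. There 4 genes rose (12.1%), against 15.2% of all genes, namely Efnb2, Epha4, Ephb3 and Srgap1. The median log2 fold change over the 33 genes was -0.22 in CD26- NFs and -0.04 in CD26+ NFs, beside 0.01 and -0.004 over all genes.

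**Figure D1:**
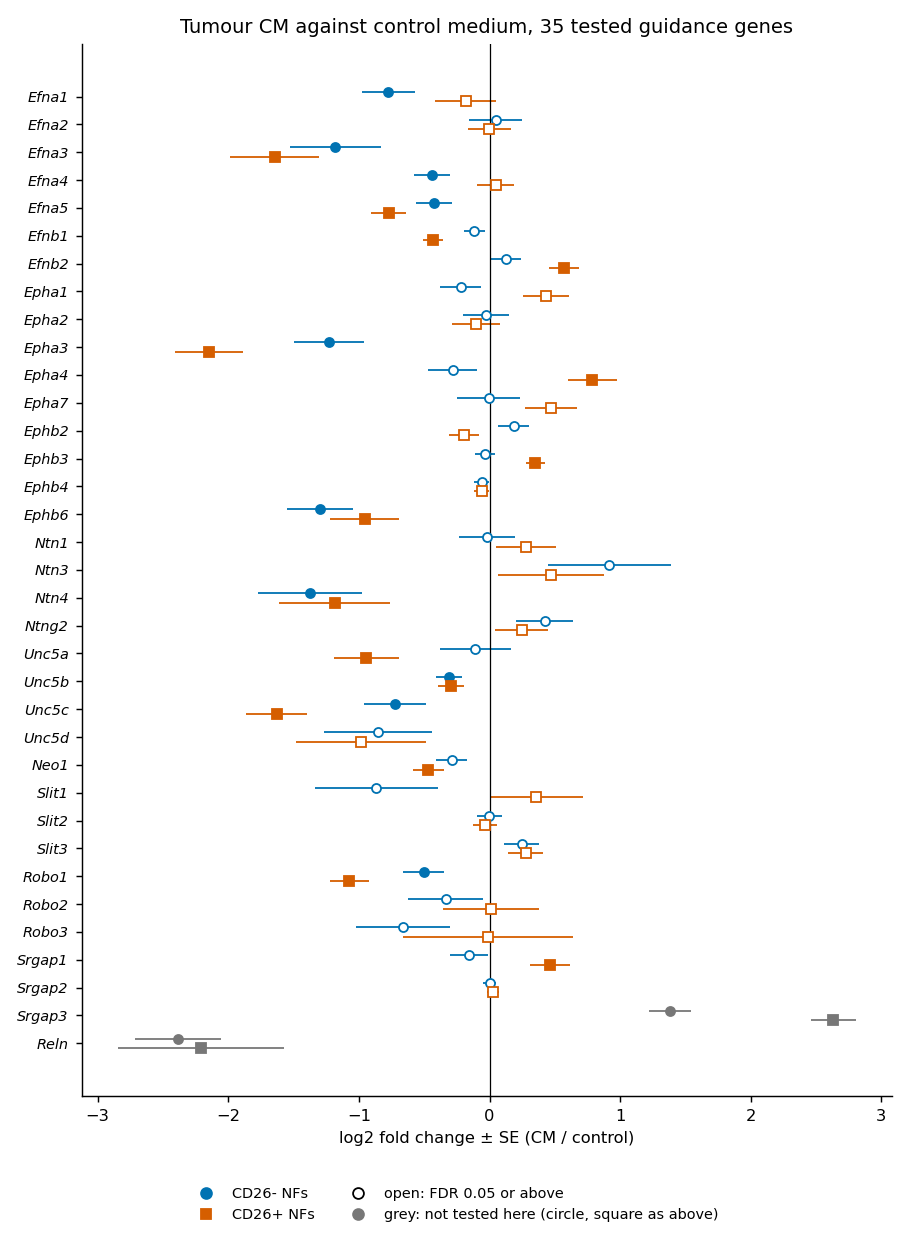
Log2 fold change of CM over control medium (x axis, ± SE) for the 35 tested guidance genes, ordered by family, in CD26- NFs (circles) and CD26+ NFs (squares); filled symbols passed an FDR of 0.05, open ones did not, and the grey Srgap3 and Reln carry no test. Filled symbols lie mostly left of 0, from -2.15 for Epha3 in CD26+ NFs to 0.79 for Epha4.

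The lists of falling genes in the 2 NF types share no library. They are not independent, as both types received CM of the same 6 lines and share the estimate of the spread. The lists had 8 genes in common: Efna3, Efna5, Epha3, Ephb6, Ntn4, Robo1, Unc5b and Unc5c. These were 80.0% of the genes that fell in CD26- NFs and 72.7% of those that fell in CD26+ NFs. Over all tested genes, 344 fell in both, which was 33.1% of the falls in CD26- NFs and 17.9% of those in CD26+ NFs. No guidance gene passed in opposite directions in the 2 types. The CD26- calls depended on single libraries, controls and CM libraries alike. Of the 33 genes, 10 passed with all libraries, where 15.2% of all genes did. The count was 2 without replicate 1 (7.57% of all genes) or 3 (5.69%), 3 without replicate 8 (11.4%), and 4 without replicate 2 (9.64%), 4 or 5 (11.3% each). It was 6 without replicate 6 (11.8%) or without the CD26+ control replicates 11 (13.5%) or 12 (13.3%), which share the estimate of the spread. Epha3 and Ephb6 passed in CD26- NFs whichever of the 18 libraries was left out, Efna1 in 16 of 18 cases, Efna3 in 14, Ntn4 in 12, Robo1 in 11, Unc5b in 9, Efna5 in 8, Efna4 in 7 and Unc5c in 5. In CD26+ NFs the falls of Efna3, Efna5, Efnb1, Epha3, Neo1, Robo1, Unc5a and Unc5c and the rises of Efnb2, Epha4 and Ephb3 passed in all 18 cases. With only the groups compared in the fit, Efna4 in CD26- NFs and Ntn4 and Srgap1 in CD26+ NFs did not pass.

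Under the limit of 2 on the log2 fold change that the study applied with the FDR, Epha3 in CD26+ NFs was the sole call among the 33 genes. The share of all genes past both limits was 0.904% in CD26- NFs, where no log2 change of these 33 reached 2 in size, and 2.01% in CD26+ NFs. Epithelial markers were lower in CD26- CM than in the controls at the median, 4273 against 5447 CPM in sum, without a gene passing. With the mean log2 level of the epithelial list as a covariate, 4 of 33 genes passed in CD26- NFs, losing Efna3, Efna4, Efna5, Ntn4, Robo1 and Unc5c, while the share of all genes called went from 15.2% to 10.7%. In CD26+ NFs 16 passed in place of 15, with 28.6% and 29.7% of all genes.

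Of the 5 A-type ephrins, 4 fell in CD26- NFs, where 7.28% of all genes did, and 2 in CD26+ NFs, where 13.4% did. The CD26- calls of Efna4 and Efna5 passed in 7 and 8 of 18 cases with a library left out. Efna5 was at 20.4, 20.5 and 21.9 CPM in CD26- controls and at 13.1 to 19.1 CPM in CM (median 15.3), with a log2 fold change of -0.42 ± 0.14 (± SE throughout) at an edgeR FDR of 0.0423. The CD26+ controls, at 17.3, 19.9 and 20.4 CPM, were likewise above CM libraries at 8.61 to 13.4 CPM (median 11.4), a shift of -0.77 ± 0.14 (edgeR FDR = 0.00049). All 6 CM libraries lay below the 3 controls in either NF type. Efna3 was scarce, at 1.28 to 2.03 CPM in CD26- controls and 1.86 to 2.15 CPM in CD26+ controls, and fell by 1.18 ± 0.35 and 1.64 ± 0.34 on the log2 scale (edgeR FDR = 0.0297 and 0.00169), without overlap. Part of its exon length, 14.1%, is shared with an antisense gene, as is 10.5% of that of Efna4 and 6.01% of that of Epha1. The strand setting of the count is not given in the sources used here.

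Efna1, Efna3 and Efna4 are neighbours on chromosome 3 (GRCm38), where Efna1 spans 89271733 to 89281142 and Efna4 ends at 89338028, all on the minus strand. Efna1 was at 20.7, 17.9 and 22.9 CPM in CD26- controls and at 9.07 to 16.5 CPM in CM (median 11.7), with no overlap and a log2 fold change of -0.77 ± 0.20 (edgeR FDR = 0.0158). In CD26+ NFs it was lower from the start, at 8.98, 4.37 and 7.49 CPM, and its CM values of 4.39 to 8.32 CPM overlapped them (-0.18 ± 0.23, edgeR FDR = 0.599). Efna4 changed by -0.44 ± 0.14 in CD26- NFs (edgeR FDR = 0.0401), where CM libraries at 9.51 to 14.1 CPM overlapped controls at 13.5 to 18.7 CPM, and by 0.05 ± 0.14 in CD26+ NFs (edgeR FDR = 0.839). Efna2, the fifth A-type ephrin, changed by 0.05 ± 0.20 and -0.00 ± 0.16.

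The B-type ephrins moved in CD26+ NFs, in opposite directions. Efnb1 was at 174 to 181 CPM in CD26+ controls and at 117 to 151 CPM in CM (median 131), all below the controls, a fall of 0.43 ± 0.08 on the log2 scale (edgeR FDR = 0.000564). Efnb2, the ligand of Ephb4 in blood vessels, rose from 131, 134 and 139 CPM to 148 to 266 CPM (median 193), all above the controls, by 0.57 ± 0.12 (edgeR FDR = 0.00146). In CD26- NFs the changes were -0.12 ± 0.08 for Efnb1 (edgeR FDR = 0.34) and 0.13 ± 0.11 for Efnb2 (edgeR FDR = 0.489), although the CM libraries of Efnb2, at 178 to 195 CPM, all lay above the controls at 164 to 173 CPM.

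Of the Eph receptors, Epha3 and Ephb6 fell in both NF types. Epha3 was at 16.2, 20.9 and 22.9 CPM in CD26- controls and at 5.26 to 12.0 CPM in CM (median 8.43), a log2 fold change of -1.23 ± 0.27 (edgeR FDR = 0.00611). CD26+ controls held more, at 28.8, 39.5 and 41.8 CPM, and CM libraries went down to 5.68 to 15.9 CPM (median 6.67), a change of -2.15 ± 0.26 (edgeR FDR = 1.33e-05). In CM the 2 NF types thus met at means of 8.63 ± 2.52 and 8.32 ± 3.85 CPM (SD, n = 6 each). Ephb6, a receptor whose kinase domain is inactive, fell from 27.2, 27.3 and 33.2 CPM to 6.04 to 19.9 CPM in CD26- NFs, by 1.30 ± 0.25 (edgeR FDR = 0.00286), and from 15.2, 18.6 and 20.3 CPM to 7.63 to 11.7 CPM in CD26+ NFs, by 0.96 ± 0.26 (edgeR FDR = 0.0117). The groups did not overlap in either type, and the CD26+ call was lost without replicate 10 (edgeR FDR = 0.0553).

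Among the other Eph receptors, Epha4 and Ephb3 rose in CD26+ NFs. Epha4, which binds ephrins of both types, was at 23.3, 26.7 and 27.7 CPM in CD26+ controls and at 36.8 to 59.9 CPM in CM (median 40.5), a rise of 0.79 ± 0.19 on the log2 scale (edgeR FDR = 0.00499). In CD26- NFs its CM values, from 17.6 CPM upward, reached to either side of controls at 31.9 to 33.2 CPM (-0.28 ± 0.19, edgeR FDR = 0.323). Ephb3 rose by 0.35 ± 0.08 in CD26+ NFs, from 26.1 to 29.4 CPM up to 30.6 to 39.8 CPM without overlap (edgeR FDR = 0.00229), and changed by -0.04 ± 0.08 in CD26- NFs. Ephb4, the receptor for Efnb2, was flat by comparison, at group means of 104 to 111 CPM and log2 changes of -0.06 ± 0.06 in both types. Epha1, Epha2, Epha7 and Ephb2 did not pass between media, with log2 changes between -0.22 and 0.47, although all CM libraries of Epha1 in CD26- NFs, at 74.9 to 98.2 CPM, lay below controls at 99.6 to 105 CPM (edgeR FDR = 0.366).

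**Figure D2:**
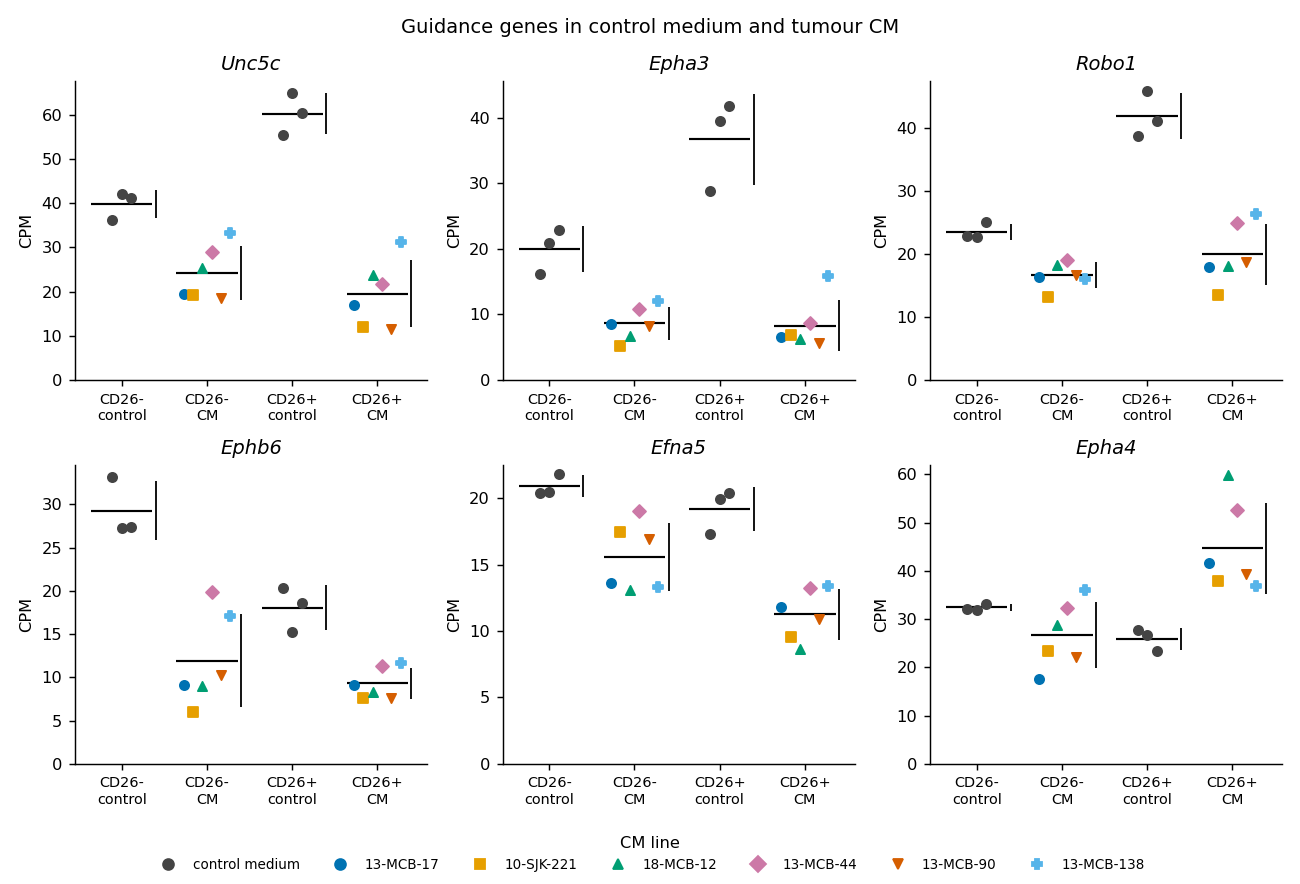
CPM (y axis) of 6 guidance genes in every library of the 4 groups, with the group mean (horizontal bar) and SD (vertical bar); colours and shapes mark the CM line, dark grey circles the control medium. Unc5c, Epha3, Robo1, Ephb6 and Efna5 are lower in all CM libraries than in the controls of the same NF type, and Epha4 is higher in CM in CD26+ NFs alone, where CM libraries lie at 36.8 to 59.9 CPM.

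Of the 5 tested netrin receptors, 4 fell in CD26+ NFs, where 13.4% of all genes did. Unc5c was at 55.4, 60.4 and 64.8 CPM in CD26+ controls and at 11.5 to 31.1 CPM in CM (median 19.4), a fall of 1.63 ± 0.23 on the log2 scale (edgeR FDR = 7.47e-05). The CD26- controls, at 36.2, 41.1 and 42.0 CPM, stood over CM libraries at 18.5 to 33.2 CPM (median 22.4), a shift of -0.72 ± 0.24 (edgeR FDR = 0.0492) that passed in 5 of 18 cases with a library left out. No CM library reached a control in either type. Unc5a fell by 0.94 ± 0.25 in CD26+ NFs (edgeR FDR = 0.00875), from 6.56 to 8.59 CPM down to 2.58 to 5.90 CPM, and changed by -0.11 ± 0.27 in CD26- NFs.

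Unc5b, the highest of these receptors per length, fell slightly in both types. It was at 590 to 669 CPM in CD26- controls and 446 to 603 CPM in CM, and at 854 to 935 CPM in CD26+ controls and 650 to 877 CPM in CM, so that the groups overlapped in both types. The log2 changes were -0.31 ± 0.10 (edgeR FDR = 0.043) and -0.30 ± 0.10 (edgeR FDR = 0.034); the second was lost without replicate 11, 12, 13, 14 or 17, with an edgeR FDR of up to 0.0992. Neo1 fell by 0.47 ± 0.12 in CD26+ NFs (edgeR FDR = 0.00635), from 172, 176 and 199 CPM to 106 to 172 CPM with no overlap, and changed by -0.29 ± 0.12 in CD26- NFs (edgeR FDR = 0.105). Unc5d, at or under 1.62 CPM in every library, did not pass.

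Of the netrins themselves, Ntn4, a netrin of basement membranes that binds laminin, fell in both NF types. It was at 15.2, 12.9 and 13.0 CPM in CD26- controls and 2.56 to 9.64 CPM in CM (median 4.70), a log2 fold change of -1.37 ± 0.40 (edgeR FDR = 0.0268) with no overlap. In CD26+ NFs the controls at 8.66, 7.48 and 9.87 CPM overlapped the highest CM library, and CM values ran from 1.80 to 7.53 CPM (median 2.74), a change of -1.18 ± 0.42 (edgeR FDR = 0.0437). This call passed in 7 of 18 cases with a library left out, with an edgeR FDR of up to 0.136. Ntn1, the founding netrin, changed by -0.02 ± 0.21 and 0.28 ± 0.23, and Ntn3 and Ntng2 did not pass.

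Robo1, a receptor for Slits, fell in both NF types. It was at 22.7, 22.8 and 25.0 CPM in CD26- controls and 13.3 to 19.1 CPM in CM (median 16.5), a log2 fold change of -0.50 ± 0.16 (edgeR FDR = 0.0375). CD26+ controls, at 38.8, 41.1 and 45.9 CPM, stood over CM libraries at 13.5 to 26.4 CPM (median 18.4), a shift of -1.07 ± 0.15 (edgeR FDR = 4.99e-05). CM and control libraries did not overlap in either type. Slit2 changed by -0.00 ± 0.09 and -0.04 ± 0.09 on the log2 scale, and Slit3 by 0.25 ± 0.13 (edgeR FDR = 0.223) and 0.28 ± 0.13 (edgeR FDR = 0.13). All CD26+ CM libraries of Slit3, at 867 to 1069 CPM, nevertheless lay above the controls at 761 to 837 CPM, and it passed when only the CD26+ groups were fitted (0.27, edgeR FDR = 0.022). Slit1, at or under 3.87 CPM, and Robo2 and Robo3, at or under 3.15 CPM, did not pass.

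The 3 Srgap genes all encode GTPase-activating proteins. Srgap3 was at 31.8, 29.0 and 27.1 CPM in CD26- controls and at 76.9, 76.7, 96.6, 59.9, 69.1 and 78.7 CPM in the CM of the 6 lines in the order given above. In CD26+ NFs it was at 21.5, 23.3 and 23.8 CPM in controls and at 161, 167, 159, 124, 144 and 98.0 CPM in CM. The highest control was thus well under the lowest CM library in either type, and the log2 fold changes were 1.38 ± 0.16 and 2.63 ± 0.17, given as a description. Srgap1 rose in CD26+ NFs by 0.46 ± 0.15 (edgeR FDR = 0.0284), from 26.6 to 32.1 CPM up to 27.4 to 50.3 CPM with overlap. That call was lost without replicate 10, 11, 13, 14 or 17, with an edgeR FDR of up to 0.118. Srgap1 changed by -0.16 ± 0.15 in CD26- NFs, and Srgap2 by -0.00 ± 0.05 and 0.03 ± 0.05.

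**Figure D3:**
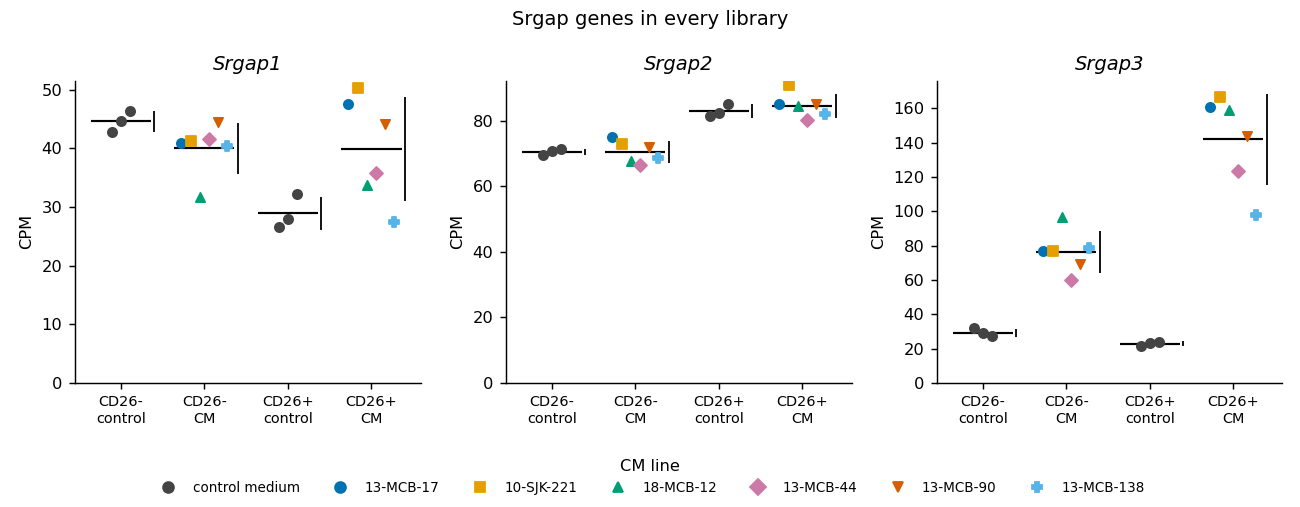
CPM (y axis) of Srgap1, Srgap2 and Srgap3 in every library of the 4 groups, with mean and SD and the CM line by colour and shape. Srgap3 is at 21.5 to 31.8 CPM in the 6 control libraries and at 59.9 to 167 CPM in the 12 CM libraries, Srgap2 keeps within 66.7 to 90.9 CPM throughout.

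Reln, given as a description, was scarce and lower in CM in both NF types. Its counts summed to 193 over the 3 CD26- controls and to 77 over the 6 CM libraries, a ratio of scaled counts of 5.31 (95% interval 4.05 to 7.00, counting error only). In CD26+ NFs the sums were 26 and 10, a ratio of 4.85 (2.27 to 11.3), and no CM library had more than 3 counts. Means were 5.27 ± 1.43 and 1.02 ± 0.689 CPM in CD26- controls and CM, and 0.672 ± 0.331 and 0.135 ± 0.0619 CPM in CD26+ controls and CM.

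The promoter sequences of Srgap3, as the gene highest in CM relative to control, and of Epha3 and Unc5c, as receptors that fell in both NF types, are given as examples chosen after their values were seen, for the 250 bases before the RefSeq start (GRCm38.p6), written 5′ to 3′ on the gene's strand. Srgap3 lies at chr6:112947267-112947516 on the minus strand, Epha3 at chr16:63864176-63864425 on the minus strand and Unc5c at chr3:141465314-141465563 on the plus strand. Capitals mark matches on either strand to binding motifs of factors that respond to cytokine, growth factor or contact signals: AP-1 (TGANTCA), STAT (TTCNNNGAA), TEAD (GGAATG), CRE (TGACGTCA) and the NF-kB consensus.
Srgap3: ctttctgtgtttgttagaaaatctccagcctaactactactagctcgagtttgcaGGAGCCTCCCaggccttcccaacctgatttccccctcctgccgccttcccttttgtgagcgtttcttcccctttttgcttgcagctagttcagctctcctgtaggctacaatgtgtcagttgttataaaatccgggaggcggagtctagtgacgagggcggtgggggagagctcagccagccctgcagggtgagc
Epha3: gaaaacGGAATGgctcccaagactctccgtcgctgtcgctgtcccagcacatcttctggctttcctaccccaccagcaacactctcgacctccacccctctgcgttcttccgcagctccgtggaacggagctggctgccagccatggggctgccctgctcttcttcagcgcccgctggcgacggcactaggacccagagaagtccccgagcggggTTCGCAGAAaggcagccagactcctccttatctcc
Unc5c: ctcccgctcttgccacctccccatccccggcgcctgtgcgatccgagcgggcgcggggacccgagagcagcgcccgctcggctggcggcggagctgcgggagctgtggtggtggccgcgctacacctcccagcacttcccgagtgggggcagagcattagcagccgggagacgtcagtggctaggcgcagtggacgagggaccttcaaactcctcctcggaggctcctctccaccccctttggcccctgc
Srgap3 had 1 match, to NF-kB, starting 195 bases before the start. Epha3 had a STAT match at 35 bases and a TEAD match at 244 bases before the start, and Unc5c had no match. Windows of 300 bases, from 250 before to 50 after the start, were found for 32 of the 35 tested genes, 37 windows in all. Among these, 0 held AP-1 (7.81% of all 32851 promoter windows), 5.41% held STAT (8.30%), 16.2% TEAD (14.7%), 2.70% CRE (1.79%) and 8.11% NF-kB (8.46%). A match is a string of letters and says nothing of binding, and its absence says nothing of a factor.

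The next question was whether the CM effect differed between CD26+ and CD26- NFs. The effect was higher in CD26+ NFs for 2 of 33 genes (6.06%), against 4.53% of all genes. They were Epha4, with a difference of 1.07 ± 0.26 on the log2 scale (edgeR FDR = 0.0216), and Ephb3, with 0.39 ± 0.11 (edgeR FDR = 0.0349); for Srgap3 the difference was 1.25 ± 0.22. Without replicate 3, 11 or 12 the Epha4 difference missed the threshold (edgeR FDR of up to 0.066), and the Ephb3 difference passed in 6 of 18 cases. Other genes that passed between media in one NF type and not in the other are not shown to differ between the types by this fit. None was lower by the edgeR test, against 3.01% of all genes; 6 were at an unadjusted p under 0.05 and none passed with DESeq2. No member differed by more than 2 on the log2 scale, as 0.392% of all genes did.

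The falls of Epha3, Unc5c, Robo1 and Unc5a were steeper in CD26+ NFs by 0.92 ± 0.38, 0.90 ± 0.34, 0.57 ± 0.22 and 0.83 ± 0.37, but these differences did not pass (edgeR FDR = 0.14, 0.107, 0.11 and 0.166). With the CM line as a replicate block, which pairs the CM libraries of the 2 NF types, 9 of 33 genes passed in place of 2, adding Efnb1, Efnb2, Epha1, Epha3, Robo1, Srgap1 and Unc5c. The share of all genes called rose alongside, from 7.53% to 17.6%. Leaving out replicate 18, the CD26+ library with CM of 13-MCB-138, gave the same 9 genes and 16.4% of all genes. In that library Epha3 at 15.9 CPM, Unc5c at 31.1 CPM and Robo1 at 26.4 CPM were the highest of the CD26+ CM libraries, and Srgap3 at 98.0 CPM and Srgap1 at 27.4 CPM the lowest.

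CD26+ and CD26- NFs were then compared within each medium. In control medium 12 of 33 genes were higher in CD26+ NFs (36.4%), against 25% of all genes, and 9 were lower (27.3%), against 25.4%. In CM 11 were higher (33.3%) and 7 lower (21.2%), against 29.3% of all genes higher and 29.3% lower. Past the log2 limit of 2 were Epha1 and Robo3 in control medium, where 5.97% of all genes were, and Slit1 in CM, where 4.16% were. Robo3 had 11 to 16 counts in CD26- controls and 0 to 5 in CD26+ controls. It passed the count filter through CD26- libraries, so its part in these counts is a description. Its estimate ran from -3.65 to -1.89 with single libraries left out. Slit1 had 3 to 12 counts in CD26- CM and 16 to 51 in CD26+ CM. The shares of genes passing were near the background, and the epithelial marker sum separated the NF types without overlap in each medium. With that list as a covariate, 2 of 33 genes passed in place of 21 in control medium and 2 in place of 18 in CM. Over all genes the share called went from 50.3% to 5.57% and from 58.6% to 5.94% in the same fits, so epithelial RNA and NF type cannot be told apart in these comparisons.

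**Figure D4:**
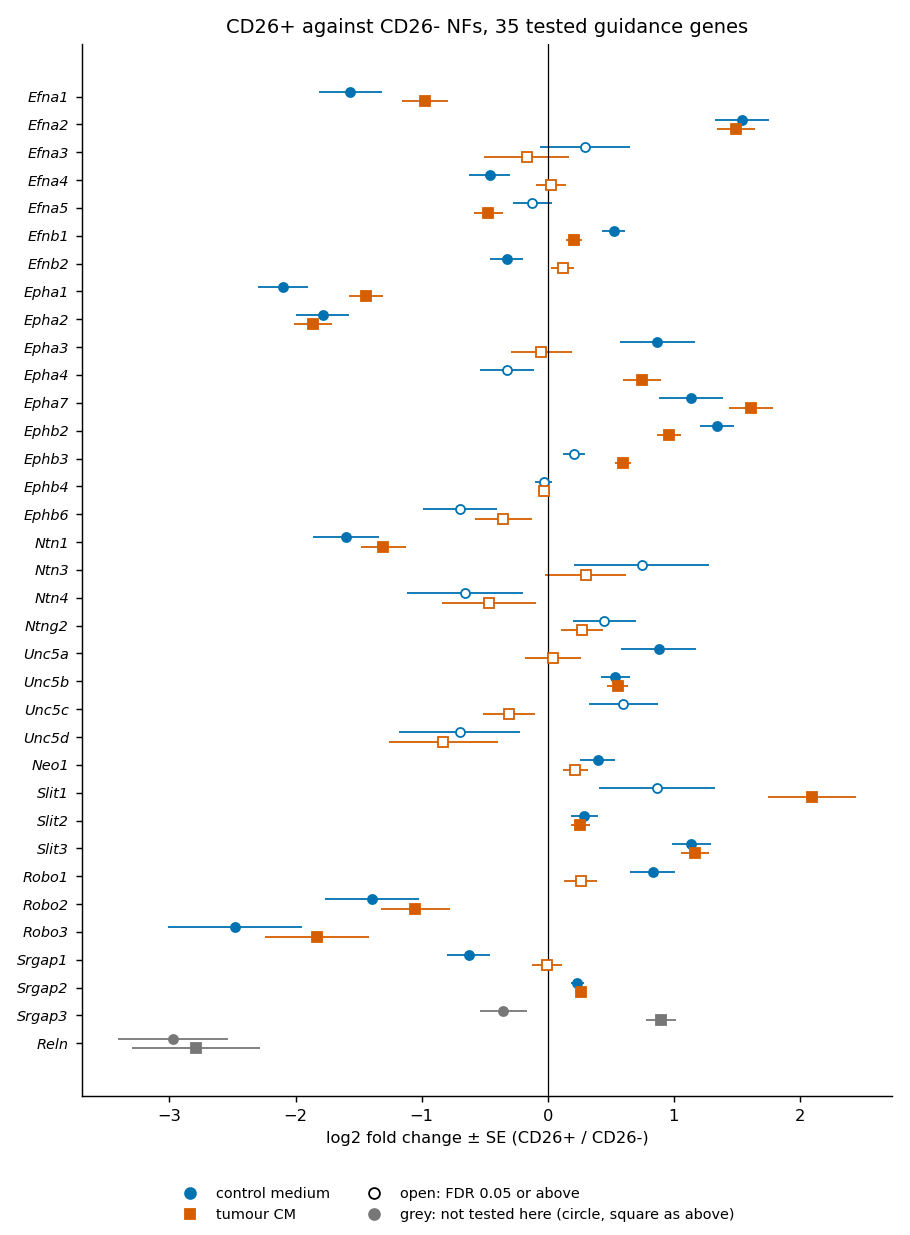
Log2 fold change of CD26+ over CD26- NFs (x axis, ± SE) for the 35 tested guidance genes in control medium (circles) and tumour CM (squares); filled symbols passed an FDR of 0.05, open ones did not, and the grey Srgap3 and Reln carry no test. Slit3, Ephb2, Efna2 and Epha7 lie to the right in both media and Epha1, Epha2, Ntn1 and Robo3 to the left. Filled symbols run from -2.48 for Robo3 to 2.09 for Slit1, both scarce. Robo3 had 0 to 5 counts in CD26+ controls and Slit1 had 3 to 12 in CD26- CM.

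Genes higher in CD26+ NFs in both media included Slit3, Ephb2, Efna2 and Epha7. Slit3 was at 346, 419 and 339 CPM in CD26- controls and 761, 837 and 830.0 CPM in CD26+ controls, a log2 difference of 1.14 ± 0.15 (edgeR FDR = 9.8e-06), and at 366 to 592 CPM against 867 to 1069 CPM in CM, a difference of 1.17 ± 0.11 (edgeR FDR = 8.91e-08). Ephb2 was at 50.3 to 60.3 CPM against 131 to 151 CPM in controls (1.34 ± 0.14, edgeR FDR = 4.84e-07) and at 52.9 to 74.9 against 108 to 144 CPM in CM (0.96 ± 0.10, edgeR FDR = 1.8e-07). No library of the 2 types overlapped for either gene in either medium. Efna2 differed by 1.54 ± 0.21 and 1.49 ± 0.15 and Epha7 by 1.14 ± 0.25 and 1.61 ± 0.18, each at an edgeR FDR of 0.00117 or less. With the epithelial covariate, Ephb2 and Epha1 were the genes still passing in control medium and Slit3 and Ephb3 those in CM.

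Smaller differences in the same direction passed for Slit2, with 0.29 ± 0.11 in control medium and 0.26 ± 0.08 in CM, Unc5b with 0.54 ± 0.12 and 0.55 ± 0.08, Srgap2 with 0.24 ± 0.05 and 0.26 ± 0.04, and Efnb1 with 0.52 ± 0.09 and 0.21 ± 0.06. Robo1, the receptor for Slit2 and Slit3, was higher in CD26+ NFs in control medium by 0.83 ± 0.18 (edgeR FDR = 0.000742) and in CM the difference was 0.26 ± 0.13 (edgeR FDR = 0.0968). Control medium and CM likewise gave differences for Epha3 of 0.87 ± 0.30 (edgeR FDR = 0.0213) and -0.05 ± 0.24 (edgeR FDR = 0.871), for Unc5a of 0.88 ± 0.30 (edgeR FDR = 0.0197) and 0.04 ± 0.22 (edgeR FDR = 0.88), and for Neo1 of 0.40 ± 0.14 (edgeR FDR = 0.0233) and 0.22 ± 0.10 (edgeR FDR = 0.0652). The test between media passed for none of these 4 genes without the CM line as a replicate block, and with it for Robo1 (edgeR FDR = 0.0127) and Epha3 (edgeR FDR = 0.0135). With the block, the difference in CM itself passed for Robo1 (0.24, edgeR FDR = 0.0244) and Neo1 (0.20, edgeR FDR = 0.00857), and also for Unc5c (-0.34, edgeR FDR = 0.00294) and Ntn4 (-0.47, edgeR FDR = 0.0344). That made 22 of 33 genes in place of 18, with 63.0% of all genes in place of 58.6%. In the CM libraries alone, a fit chosen after seeing the data, Neo1 and Unc5c passed with the block and Robo1 (edgeR FDR = 0.0662) and Ntn4 (edgeR FDR = 0.0747) did not. Calls in control medium were lost when single libraries were left out: that of Epha3 without replicate 1, 11 or 12 (edgeR FDR of up to 0.0804), that of Unc5a without 1, 3, 11 or 12 (up to 0.106), that of Neo1 without 1 or 11 (up to 0.0824) and that of Slit2 without 1, 2 or 12 (up to 0.127). Slit1, Epha4 and Ephb3 passed in CM, with 2.09 ± 0.35, 0.75 ± 0.15 and 0.60 ± 0.06, and not in control medium, with 0.87 ± 0.46, -0.33 ± 0.22 and 0.21 ± 0.09. Of these 3, the test of the difference between media passed for Epha4 and Ephb3, and for Slit1 it gave 1.23 ± 0.59 (edgeR FDR = 0.204).

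Genes lower in CD26+ NFs in both media included the receptors Epha1 and Epha2 and the ligand Ntn1. Epha1 was at 105, 101 and 99.6 CPM in CD26- controls and 31.3, 16.3 and 23.7 CPM in CD26+ controls, a log2 difference of -2.10 ± 0.20 (edgeR FDR = 2.18e-07), and in CM the difference was -1.44 ± 0.14 (edgeR FDR = 9.36e-08). Epha2 was at 161 to 192 against 39.7 to 57.6 CPM in controls (-1.78 ± 0.21, edgeR FDR = 2.25e-06) and differed by -1.86 ± 0.15 in CM. Ntn1 was at 61.4 to 90.0 against 17.5 to 31.2 CPM in controls (-1.60 ± 0.26, edgeR FDR = 6.2e-05) and differed by -1.30 ± 0.18 in CM. None of these 3 genes overlapped between the NF types in either medium, and in CD26+ controls each was lowest in replicate 11.

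Efna1 was lower in CD26+ NFs by 1.57 ± 0.25 in control medium and 0.97 ± 0.18 in CM. Robo2 and Robo3, both scarce, were lower by 1.40 ± 0.37 and 2.48 ± 0.53 in control medium and by 1.05 ± 0.27 and 1.83 ± 0.41 in CM. Robo3 had 6 to 13 counts in CD26- CM and 1 to 3 in CD26+ CM, and passed the count filter through CD26- libraries alone. Its differences are therefore a description. With only the CM groups in the fit, Robo3 had too few counts to be tested. Srgap1 was lower in control medium (-0.63 ± 0.17, edgeR FDR = 0.00544), with -0.01 ± 0.12 in CM, and Efna5 was lower in CM (-0.47 ± 0.12, edgeR FDR = 0.00203), with -0.12 ± 0.16 in control medium. The test between media, without the block, did not pass for Srgap1 (edgeR FDR = 0.0737) or Efna5 (edgeR FDR = 0.279); with it, Srgap1 passed. Efna4 (-0.46 ± 0.16, edgeR FDR = 0.024) and Efnb2 (-0.33 ± 0.13, edgeR FDR = 0.0455) were lower in control medium; the first was lost without replicate 1, 11 or 12 (edgeR FDR of up to 0.174) and the second passed in 2 of 18 cases. With the epithelial list as a covariate, the direction turned for Efna1 and Efna5 in CM and for Efna4 in control medium. Reln, as a description, was 5.27 against 0.672 CPM in control medium and 1.02 against 0.135 CPM in CM in CD26- and CD26+ NFs.

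The 6 lines were compared over the 12 CM libraries, with a term for NF type, so that the 2 types served as the samples of a line. Of the 30 guidance genes tested there besides Srgap3, 4 differed among lines (13.3%), against 6.56% of all genes. Unc5c (edgeR FDR = 0.0163) was highest with CM of 13-MCB-138, at 33.2 and 31.1 CPM in CD26- and CD26+ NFs, and lowest with that of 13-MCB-90, at 18.5 and 11.5 CPM. Ntn4 (edgeR FDR = 0.037) was at 9.64 and 5.99 CPM with 13-MCB-138 and at 7.66 and 7.53 CPM with 13-MCB-44, against 2.60 and 1.80 CPM with 10-SJK-221. Both genes were also among those that fell under CM in each NF type.

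Efna1 (edgeR FDR = 0.0185) was highest with 13-MCB-44, at 16.5 and 8.32 CPM, and lowest with 18-MCB-12, at 9.07 and 4.39 CPM. Epha1 (edgeR FDR = 0.0388) was highest with 13-MCB-90, at 98.2 and 40.6 CPM. It was lowest with 13-MCB-17 in CD26- NFs, at 74.9 CPM, and with 18-MCB-12 in CD26+ NFs, at 25.8 CPM. Epha3 (edgeR FDR = 0.0568), Unc5b (edgeR FDR = 0.0574) and Ephb6 (edgeR FDR = 0.0626) missed the threshold. The count was 1 without line 13-MCB-44 (430 of all 13307 genes tested), 2 without 13-MCB-90 (523 of 13412) and 8 without 13-MCB-138 (1420 of 13430).

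**Figure D5:**
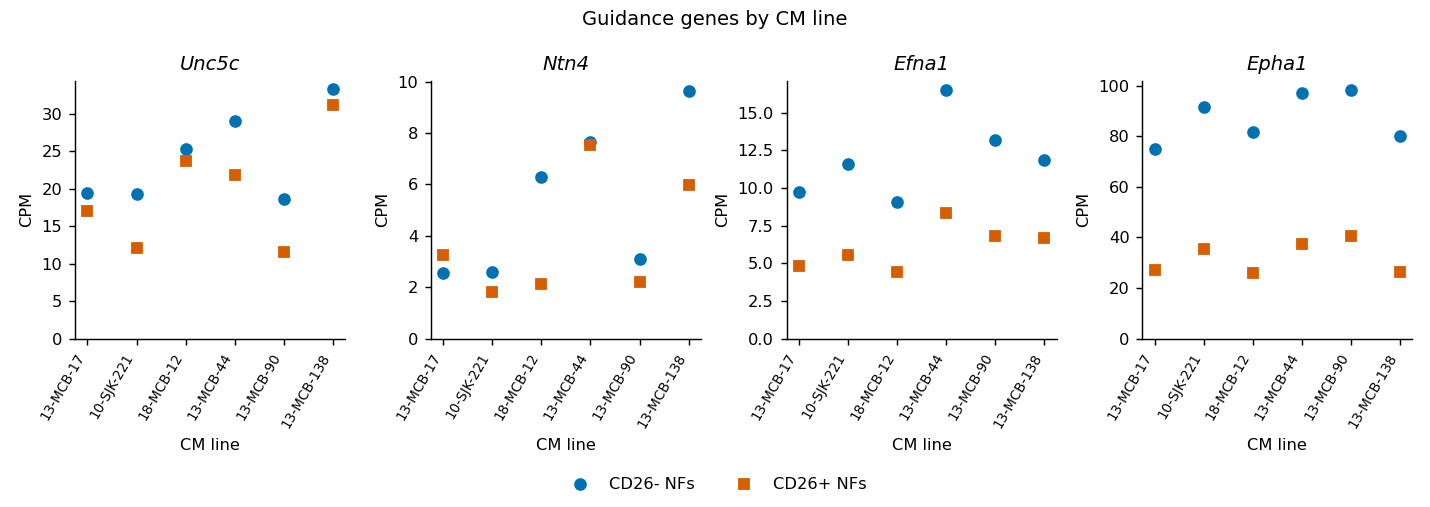
CPM (y axis) of Unc5c, Ntn4, Efna1 and Epha1 by the line that supplied the CM (x axis), 1 point per library, circles for CD26- and squares for CD26+ NFs. Unc5c is highest with 13-MCB-138 in both types, at 33.2 and 31.1 CPM, and Efna1 with 13-MCB-44, at 16.5 and 8.32 CPM.

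Genes that bind these ligands and receptors, and genes that act below them, were read from 2 lists. Of the 14 tested partners, 1 was higher and 2 were lower in CM in CD26- NFs, where 15.2% of all genes passed, and 5 were higher and 2 lower in CD26+ NFs, where 28.6% did. Lrrc4c, a ligand of netrin-G1, fell in CD26- and CD26+ NFs by 0.83 ± 0.25 (edgeR FDR = 0.0307) and 1.99 ± 0.24 (edgeR FDR = 1.52e-05), from means of 8.80 and 12.9 CPM to 4.99 and 3.27 CPM. Adam10, a protease that cuts ephrins, fell by 0.39 ± 0.07 (edgeR FDR = 0.00218) and 0.22 ± 0.07 (edgeR FDR = 0.0333). Draxin, a secreted partner of netrin and its receptors, rose in CD26- NFs by 1.69 ± 0.52 (edgeR FDR = 0.0347), from 1.76 ± 0.636 to 5.53 ± 3.09 CPM, and was at 102 ± 13.9 CPM in CD26+ controls. Flrt3, which binds Unc5 and Robo receptors, rose in CD26+ NFs by 0.98 ± 0.17 (edgeR FDR = 0.000353), and the reelin receptor Vldlr by 0.94 ± 0.28 (edgeR FDR = 0.0199).

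Of the 23 tested effectors, there were 1 rise and 2 falls in CD26- NFs, and 4 rises and 6 falls in CD26+ NFs, beside the same shares of all genes. Ngef, an exchange factor for small GTPases below EphA receptors, rose in CD26- NFs by 0.76 ± 0.24 (edgeR FDR = 0.0381), and Vav2 and Pak2 fell by 0.16 ± 0.05 and 0.14 ± 0.04 (edgeR FDR = 0.0395 and 0.045). In CD26+ NFs the kinases Pak3 and Src rose by 0.95 ± 0.10 (edgeR FDR = 3.33e-06) and 0.45 ± 0.07 (edgeR FDR = 0.000234). Enah, an actin regulator, and the kinase Pak1 fell there by 0.49 ± 0.07 (edgeR FDR = 8.46e-05) and 0.43 ± 0.08 (edgeR FDR = 0.00062). Set against CD26- NFs, CD26+ NFs had 3 partners up and 3 down in control medium and 8 up and 3 down in CM, and 3 effectors up and 13 down in control medium and 4 up and 10 down in CM. Of all genes, 50.3% differed between NF types in control medium and 58.6% in CM.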

How the data were processed

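RNA was sequenced from 18 cultures in 4 groups, taken from the labels. The deposited counts are raw read counts per gene, made by the authors with HISAT2 2.1.0 and HTSeq on GRCm38 per the submitters' processing notes; the annotation release and strand setting are not given in the sources used here. Totals were 9725723 to 14585349 counts, and 1 row without a gene name, with 0 counts, was left out. Genes were filtered with filterByExpr, scaled by TMM and tested in edgeR 4.0.16 (R 4.3.3, limma 3.58.1) by its quasi-likelihood F test, in 1 model of the 4 groups, with Benjamini-Hochberg adjustment over 14273 genes. The CM line test used the 12 CM libraries with terms for NF type and line, over 13344 genes. The common biological coefficient of variation was 0.117, with 14 residual degrees of freedom. Replicates of a group differed by more than sampling noise (chi-square of at least 3.10 per degree of freedom). Intervals and floors of 3 counts cover counting error only.

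CM libraries of the same line in CD26- and CD26+ NFs deviated together, with correlations of residuals between 0.306 and 0.481 in all 6 pairs, and the labels name the line. A fit with the line as a replicate block was therefore also made. Other settings tried were upper-quartile and RLE scaling, DESeq2 1.42.0, other filters, the epithelial list as a covariate, the groups compared alone, a log2 limit of 2, and leaving out each library or line. The block within the CM libraries alone was added after seeing the data. Members and lists were chosen with earlier results of these data known. Named in full were tested members whose mean reached 1 CPM in some group and that passed in at least 1 contrast; of partner and effector lists, the 2 genes with the smallest p per direction in each CM contrast. Promoter windows, 250 bases before to 50 after a start, came from RefSeq on GRCm38.p6 and matched 40 of 45 members. Exon lengths came from GENCODE M21. Part of the genotype of the tumour lines is not reported here.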

Additional observations from a re-analysis of the deposited data

Results flagged for a closer look

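Among 70 groups of 6 CM libraries over the tested genes, 3 held a library far from the others by Dixon's test, which chance gives in about 1 in 20 groups. Epha3 was at 15.9 CPM in replicate 18 of CD26+ NFs (CM of 13-MCB-138), where the nearest library had 8.64 CPM. Ntn3 was at 2.03 CPM in replicate 15 of CD26+ NFs (nearest 1.05 CPM). Srgap1 was at 31.7 CPM in replicate 6 of CD26- NFs (nearest 40.4 CPM). The CM effect differed between CD26+ and CD26- NFs for Epha4, by 1.07 on the log2 scale, and for Ephb3, by 0.39, in the interaction test of edgeR.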

How the results depend on the processing

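Counts are over the 33 genes other than Srgap3 and Reln, which were selected on these contrasts; counts that add those 2 follow in brackets and carry no weight. With the epithelial list as a covariate, 4 genes (6) passed for CM in CD26- NFs in place of 10 (12), 2 (2) for NF type in control medium in place of 21 (22) and 2 (2) in CM in place of 18 (20). In that fit the difference between NF types turned in control medium to 0.20 for Efna4, 0.45 for Ephb6 and 1.01 for Ntn4, and in CM to 0.40 for Efna1, 0.022 for Efna5, 0.72 for Ephb6, 1.00 for Ntn4 and 0.21 for Unc5d. The epithelial level did not overlap between NF types, so the 2 cannot be told apart. With the log2 limit of 2, the counts were 0 (1) and 1 (3) for CM in CD26- and CD26+ NFs, 2 (3) and 1 (2) for NF type in control medium and CM, and 0 (0) for the contrast of the CM effects. With the CM line as a replicate block, the difference in CM effect passed for 9 genes (10) in place of 2 (3), and NF type in CM for 22 (24) in place of 18 (20); the block ended no call in these 2 comparisons. With only the groups compared in the fit, 10 genes passed for CM in CD26- NFs (16.3% of all genes), losing Efna4 and adding Neo1, and 14 in place of 15 in CD26+ NFs (24.4%), losing Ntn4 and Srgap1 and adding Slit3. For NF type 25 passed in control medium (59.8%), adding Epha4, Ephb6, Ntn4 and Unc5c, and 17 in CM (56.1%). Robo3 had too few counts to be tested in that CM fit, so its absence there is no failed test. For the 6 lines, 4 genes passed (6.56% of all genes), against 10 with DESeq2 (10.3%) and 15 (16) without a filter (8.33%). Leaving out single libraries gave 2 to 11 genes (4 to 13) for CM in CD26- NFs, with 5.69% to 19.3% of all genes, and 12 to 17 (14 to 19) in CD26+ NFs, with 19.0% to 34.9%. It gave 16 to 22 (17 to 23) for NF type in control medium, with 42.1% to 52.4%, 18 to 21 (20 to 23) in CM, with 55.3% to 59.3%, and 0 to 9 (1 to 10) for the difference, with 2.33% to 16.4%. Leaving out single lines gave 1 to 8 (1 to 9), with 3.23% to 10.6%. The cause of these changes was not tested. Over single genes, here with Srgap3 and Reln included, 2307 values kept their direction and side of the threshold, 180 lost and 53 gained a call and 8 reversed.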
